A study of Mus musculus with 10 samples.

Results

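The genes described are 56 genes of DNA replication and of the passage from G1 into S phase, among 23111 named genes measured in bEnd3 cells with and without forced Gata4. The study's title concerns GATA4 in the endothelium of particular organs, and the comparison asks how these genes stand when it is placed in a brain endothelial line. The members were taken as the features of the deposited table whose platform gene symbol stood on a list of 56 symbols, and each of the 56 had 1 feature. bEnd3 is a line of mouse brain endothelial cells that divides without limit because it carries the polyoma middle T antigen. In the 5 Gata4 samples a lentivirus under the EF1 alpha promoter delivered a codon-optimised mouse Gata4 together with mCherry and a puromycin resistance gene. In the 5 empty-vector (EV) samples the virus carried mCherry and the resistance gene without Gata4, and all cells were selected in puromycin at 2 µg/ml. The titles name the 5 samples of each group biological replicates and do not tell whether each was transduced on its own, so the p-values cover only differences between samples as drawn, which may be technical. Total RNA was read on Affymetrix arrays, and levels below are log2 values after the authors' RMA normalization.

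Replication starts at origins that are licensed in G1, when the origin recognition complex, Cdc6 and Cdt1 load the ring-shaped MCM helicase onto DNA. At the start of S phase Cdc45 and the GINS complex bind this ring and make it an active helicase, and primase, the polymerases, the sliding clamp PCNA and its loader RFC copy the strands. Cyclin D and cyclin E kinases open this step by phosphorylating the retinoblastoma family of pocket proteins, which frees E2F transcription factors to switch on many of the same replication genes. Endothelial cells of adult vessels rarely divide, whereas this immortalised line cycles in culture.

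Most of these genes were lower in the Gata4 samples, and by modest amounts. At an adjusted p under 0.05 (limma, Benjamini-Hochberg over all named genes), 37 of the 56 were lower, 3 were higher and 16 did not pass. Among all named genes 13.2% were called lower and 12.4% higher. Of the 11556 genes above the median level, where 55 of the 56 members lay, 24.3% were lower and 21.7% higher. The median log2 change of the members was -0.34, against -0.01 over all named genes and -0.02 over those above the median level. The 37 falls ranged from 1.13-fold to 2.03-fold, with a median of -0.43 on the log2 scale. Only 11 of them reached 1.5-fold and 1 reached 2-fold. For 37 members every Gata4 value lay below every EV value (35 called lower, plus Mcm4 and Prim2, which did not pass), where 10.5% of all named genes and 19.8% of those above the median level showed this. An earlier look at these data had found cell cycle genes lower, and the members were listed with that known, so their shared direction is not independent evidence.

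**Figure D1:**
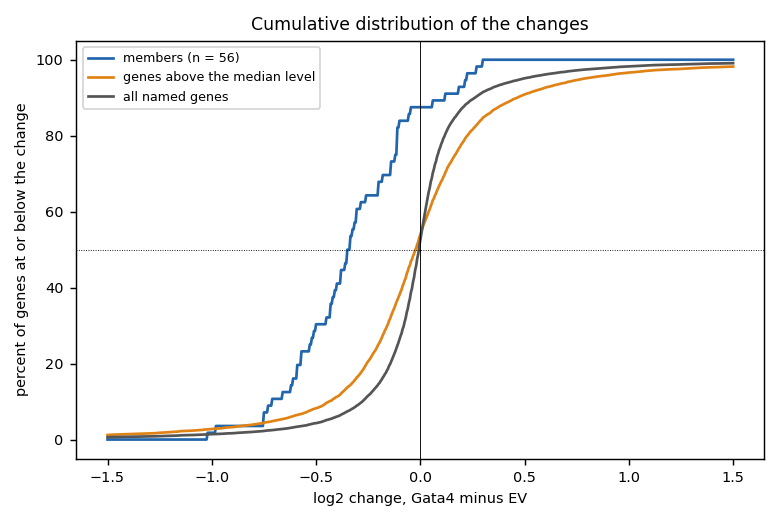
Cumulative share of genes, in percent, against the log2 change (Gata4 minus EV) for the 56 members, the 11556 genes above the median level and all 23111 named genes. The members' curve lies to the left of both others over most of its length and crosses 50% near their median of -0.34, while the others cross it near 0; values beyond the plotted range are not drawn.

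Sample by sample, the mean level of the 56 members was 8.48, 8.45, 8.49, 8.51 and 8.48 in the Gata4 samples, against 8.79, 8.80, 8.81, 8.85 and 8.80 in the EV samples. No Gata4 sample reached the EV range, and the spread within a group was small beside the gap. On the second principal component of all genes, EV samples 1 and 2 lay at -12.8 and -14.4, apart from EV samples 3 to 5 at 5.6 to 13.3. For 16 members both of these EV samples were below the other EV samples and for 7 they were above. Without them 37 members were still called lower, 36 of them the same genes.

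The Gata4 feature itself stood at 5.08 ± 0.17 in the Gata4 samples and 4.75 ± 0.16 in the EV samples (SD, n = 5 each), and the groups overlapped. It was called higher (adjusted p = 0.017) by limma but not by the exact permutation test (adjusted p = 0.087), and a feature designed on the mouse gene need not read a codon-optimised copy. All 10 endothelial markers examined lay above the median level in these cells, with Cdh5 highest, at 13.58 in Gata4 and 13.83 in EV samples. Of these 10, 4 were lower (Kdr by 1.18, Cldn5 by 1.04, Esam by 0.70 and Cdh5 by 0.25 on the log2 scale) and 3 higher (Tek by 1.53, Tie1 by 0.34 and Emcn by 0.20). Among genes above the median level 24.3% were lower and 21.7% higher. The mean of the 10 markers ranged from 11.47 to 11.50 in Gata4 and from 11.52 to 11.71 in EV samples, without overlap. The markers of other cell types were mostly near the lower end of the scale, although each list held a gene above the median level. Ptprc was the lowest leukocyte gene, averaging 2.78 in Gata4 and 2.90 in EV samples, and Cd68 the highest, at 7.30 and 8.53. Epcam was the lowest epithelial gene, at 3.03 in Gata4 and 2.94 in EV samples, and Krt8 the highest, at 5.74 and 5.49. Acta2, highest of the pericyte and smooth muscle genes, stood at 6.36 in Gata4 and 7.12 in EV samples. Pdgfra, highest of the fibroblast genes, stood at 4.42 in Gata4 and 5.43 in EV samples. Of the 24 markers of other types that were measured, 3 were higher (Rgs5, Dcn and Tubb3) and 3 lower (Cd68, Pdgfra and Acta2). Among all named genes 12.4% were higher and 13.2% lower. The mean of the 4 leukocyte markers ranged from 4.04 to 4.16 in Gata4 and from 4.40 to 4.59 in EV samples, and only Cd68, also a lysosomal gene, was called among them. The mean of the 5 fibroblast markers ranged from 3.76 to 3.95 in Gata4 and from 3.91 to 4.20 in EV samples, and that of the 6 pericyte and smooth muscle markers from 4.06 to 4.14 in Gata4 and from 3.95 to 4.29 in EV samples. The mean of the 4 epithelial markers ranged from 4.06 to 4.19 in Gata4 and from 3.98 to 4.23 in EV samples, and that of the 5 astrocyte and neuron markers from 3.72 to 4.02 in Gata4 and from 3.58 to 3.69 in EV samples. The part of these marker differences in the results was not tested. In a bulk array a smaller share of cells in S phase and less RNA of these genes per cell cannot be told apart.

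**Figure D2:**
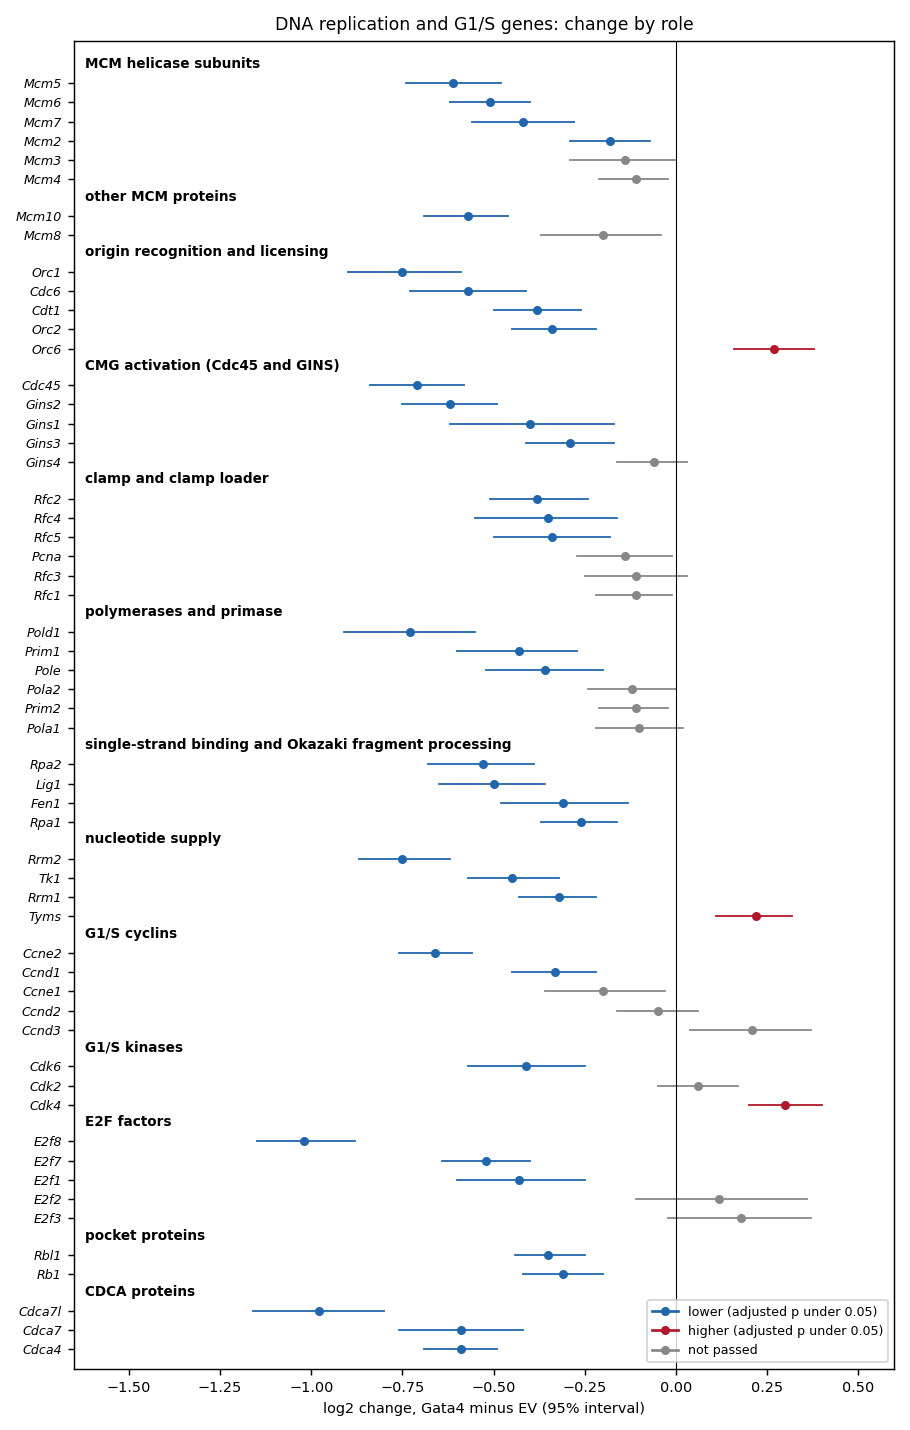
Log2 change (Gata4 minus EV, points) with its 95% interval (lines) for the 56 members, grouped by role; blue marks genes called lower, red genes called higher and grey genes that did not pass. The changes run from -1.02 for E2f8 to 0.30 for Cdk4, and every role except the G1/S kinases has more genes called lower than higher.

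Because many of these genes are known E2F targets, their promoters were searched for the 8-base words TTTGGCGC, TTTCGCGC, TTTCCCGC and TTTGCCGC of the E2F site, on both strands, in RefSeq windows (build GRCm38.p6) from 250 bases before to 50 after an annotated start. A window was held for 45 of the 56 members. Of these 45, 19 (42.2%) had at least 1 E2F word, against 3.29% of the 17496 genes of the table with a window and 4.9% of those above the median level. The word was present in 12 of 30 members called lower, in 7 of 12 that did not pass and in 0 of 3 called higher (Orc6, Tyms and Cdk4). Members with and without a fall thus both held it. Among the largest falls, E2f8, Cdca7l and Rrm2 had none in these windows, and Orc1 and Pold1 had 1 each. A link between the word and the change was not tested. The words can overlap, since TTTCGCGC read on one strand can share bases with TTTGGCGC on the other. The word CCAAT stood in 64.4% of the 45, 41.9% of all genes with a window and 42.9% of those above the median level. The words TTTGAA and TTCGAA, of the CHR element of cell cycle genes, stood in 22.2% of the 45, 19.5% of all and 15.8% of those above the median level. The word GATAA, part of the site that GATA factors bind, stood in 13.3% of the 45, 25.2% of all and 18.5% of those above the median level. It was present in 6 of 30 members called lower (20%), in 0 of 12 that did not pass and in 0 of 3 called higher. A match of letters is a description of the window and not a site shown to be bound. Only these exact words were searched, so a window without one may still hold another form of the site.

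The stretches below, all before the annotated start and written 5′ to 3′ on the strand of the gene, show the E2F words in capitals for 6 members that fell and 3 that did not pass, as examples of both, out of 13 members with a word before the start. The 9 were picked with their values known, and Cdca7, E2f7, Gins3 and E2f3 are not shown. They lie at chr4:108579415-108579446 (+) for Orc1, chr8:75109344-75109379 (+) for Mcm5, chr1:128359733-128359827 (-) for Mcm6, chr5:138172029-138172060 (-) for Mcm7, chr11:98908001-98908032 (+) for Cdc6 and chr2:157204535-157204564 (-) for Rbl1. Those that did not pass lie at chr5:151651209-151651230 (-) for Rfc3, chrX:93632274-93632305 (-) for Pola1 and chr10:128705172-128705203 (-) for Cdk2. The stretch of Mcm6 holds 3 words, 2 of which overlap, and that of Mcm5 holds 2 overlapping words.
Orc1: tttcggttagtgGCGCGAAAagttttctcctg
Mcm5: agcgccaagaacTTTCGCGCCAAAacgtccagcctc
Mcm6: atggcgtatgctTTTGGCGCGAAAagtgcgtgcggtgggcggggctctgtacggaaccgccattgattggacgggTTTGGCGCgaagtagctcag
Mcm7: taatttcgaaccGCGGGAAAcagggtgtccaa
Cdc6: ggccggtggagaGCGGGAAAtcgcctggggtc
Rbl1: caagaaggcgatTTTCGCGCgctttgtcgc
Rfc3: gacgtcgcacgcTTTCGCGCtc
Pola1: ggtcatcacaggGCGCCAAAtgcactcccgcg
Cdk2: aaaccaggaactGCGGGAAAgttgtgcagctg

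**Figure D3:**
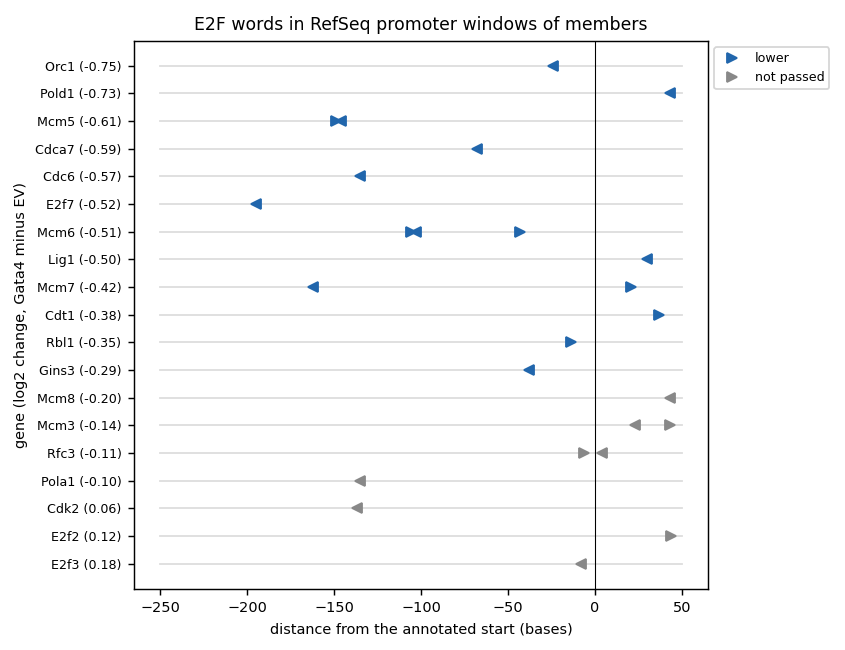
Positions of E2F words, in bases from the annotated start, in the promoter windows of the 19 members that hold one, ordered by log2 change (in brackets, Gata4 minus EV); all windows of a gene are drawn on 1 line. Right-pointing marks are words on the strand of the gene and left-pointing marks words on the other strand, and members called lower (blue) and members that did not pass (grey) both carry words on either side of the start.

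The counts by role that follow each cover few genes. Beside them, 24.3% of genes above the median level were called lower and 21.7% higher, and 19.8% were lower without overlap. Origin recognition and licensing genes split within the complex. Orc1, the subunit whose level follows the cell cycle most closely, fell 1.68-fold (95% interval 1.51 to 1.87). Its values were 4.77, 4.85, 4.74, 4.85 and 5.01 in the Gata4 samples, against 5.44, 5.53, 5.54, 5.70 and 5.75 in the EV samples (adjusted p = 4.7e-06). All Gata4 samples were below all EV samples. Its Gata4 mean of 4.84 was low, where values may be background. Orc2 fell by 0.34 ± 0.05 (SE) on the log2 scale. Orc6, the subunit that in yeast helps to bring in Cdt1 and the helicase, took the opposite direction. It stood at 8.89, 8.93, 8.99, 8.99 and 8.91 in the Gata4 samples, against 8.60, 8.72, 8.70, 8.60 and 8.74 in the EV samples, a rise of 0.27 ± 0.05 (SE, adjusted p = 0.0011). Here every Gata4 sample lay above every EV sample. The loading factors Cdc6 and Cdt1 both fell. Cdc6, an ATPase that completes the loader, had 7.66, 7.35, 7.59, 7.48 and 7.56 in the Gata4 samples, against 8.06, 8.10, 7.99, 8.31 and 8.02 in the EV samples, a log2 change of -0.57 ± 0.07 (SE, adjusted p = 7e-05). Cdt1, which brings the helicase to the origin, changed by -0.38 ± 0.06 (SE), with means of 8.03 ± 0.06 in Gata4 and 8.40 ± 0.10 in EV samples (SD, n = 5 each).

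The measured falls of the MCM helicase subunits were not equal. Of the 6 genes Mcm2 to Mcm7, 4 fell and Mcm3 and Mcm4 did not pass. Mcm5 showed 9.34, 9.31, 9.32, 9.50 and 9.46 in the Gata4 samples, against 9.88, 9.94, 10.08, 10.09 and 10.004 in the EV samples, a 1.53-fold fall (interval 1.4 to 1.67, adjusted p = 5.4e-06). Mcm6 was 9.34, 9.28, 9.40, 9.38 and 9.43 in the Gata4 samples, against 9.81, 9.85, 9.87, 9.99 and 9.85 in the EV samples, a 1.42-fold fall. Neither gene overlapped between the groups. Mcm7 fell by 0.42 ± 0.06 (SE) and Mcm2 by 0.18 ± 0.05 (SE). The 95% intervals of Mcm5 (-0.74 to -0.48) and of Mcm2 (-0.29 to -0.07) lay apart. Mcm3 had a log2 change of -0.14 (interval -0.29 to 0.00, adjusted p = 0.16). Mcm4 had one of -0.11 (interval -0.21 to -0.02, adjusted p = 0.084), although its Gata4 values, 9.76 to 9.84, were all below its EV values, 9.86 to 9.96. Outside the ring, Mcm10, a factor that helps to fire the helicase, fell 1.49-fold, with 6.80 to 6.99 in the Gata4 samples, against 7.36 to 7.52 in the EV samples. Mcm8, which works with Mcm9 in homologous recombination, had a change of -0.20 and missed the threshold (adjusted p = 0.072).

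Of the factors that turn the loaded ring into the active helicase, 4 of 5 fell. Cdc45 had 6.58, 6.65, 6.75, 6.56 and 6.54 in the Gata4 samples, against 7.28, 7.22, 7.29, 7.41 and 7.42 in the EV samples, a 1.63-fold fall (interval 1.5 to 1.78, adjusted p = 1.2e-06). Gins2 was 7.88, 7.89, 8.04, 8.08 and 8.14 in the Gata4 samples, against 8.63, 8.68, 8.57, 8.63 and 8.63 in the EV samples, a 1.54-fold fall. The groups lay apart for both genes. The other GINS subunits followed less far: Gins1 changed by -0.40 ± 0.10 (SE) and Gins3 by -0.29 ± 0.05 (SE), while Gins4 had a change of -0.06 that did not pass (interval -0.16 to 0.03). Gins1 spread more in the Gata4 samples than any other member, with 6.61, 5.92, 6.36, 6.44 and 6.39 in the Gata4 samples, against 6.76, 6.74, 6.77, 6.66 and 6.77 in the EV samples. Its adjusted p was 0.012, and without EV samples 1 and 2 it no longer passed (adjusted p = 0.055).

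**Figure D4:**
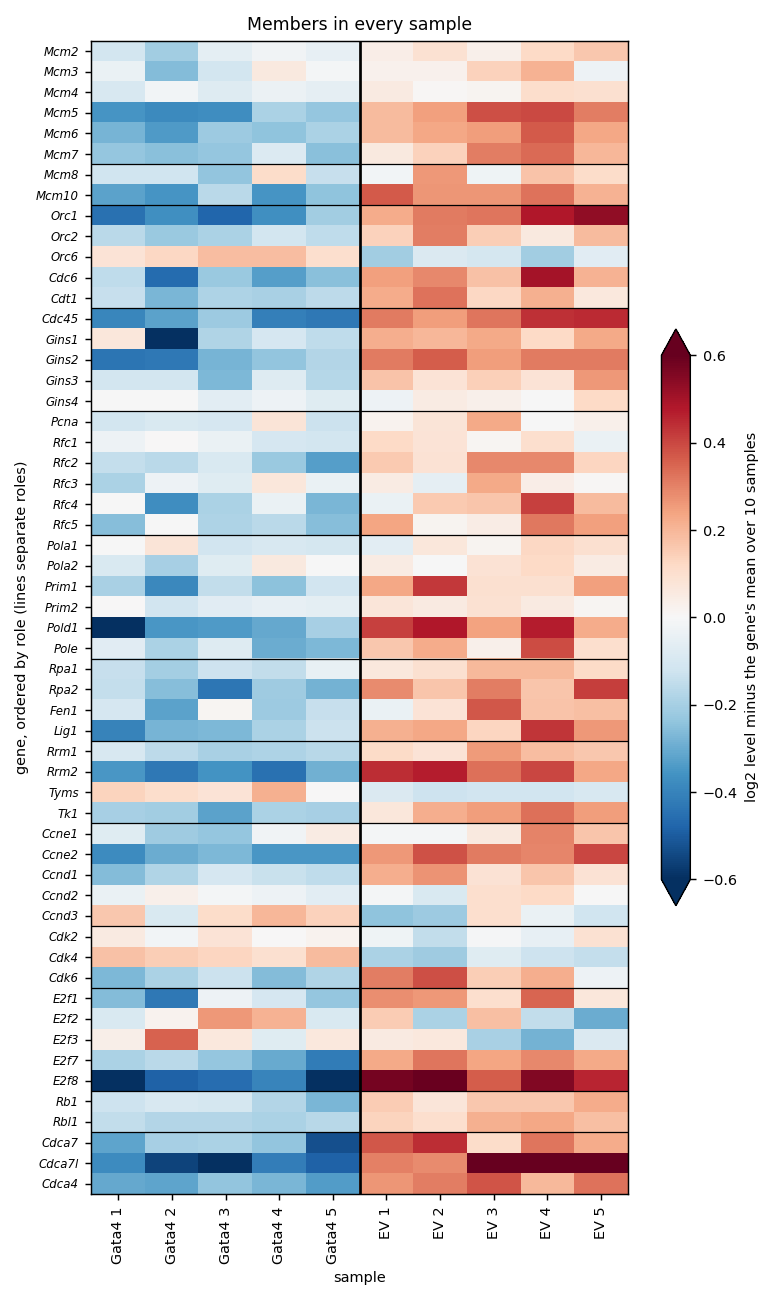
Each of the 56 members (rows, ordered by role) in each of the 5 Gata4 samples (left of the heavy line) and the 5 EV samples (right of it), as the log2 level minus the gene's mean over the 10 samples; blue is below and red above that mean. Most rows are blue on the left and red on the right, with Orc6, Tyms and Cdk4 the other way round; Ccnd3, E2f3, E2f2 and Cdk2 also had positive changes, with overlap, and did not pass.

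Among the genes that copy the strands, the leading-strand and lagging-strand polymerases fell, and most of the polymerase alpha complex did not pass. Pold1, the catalytic subunit of polymerase delta, had 6.74, 7.03, 7.04, 7.07 and 7.18 in the Gata4 samples, against 7.79, 7.86, 7.62, 7.85 and 7.60 in the EV samples, a 1.66-fold fall (interval 1.46 to 1.88, adjusted p = 2.4e-05). Pole, the catalytic subunit of polymerase epsilon, changed by -0.36 ± 0.07 (SE), and its groups did not overlap. Of the complex that lays down primers, Prim1, the catalytic primase subunit, fell by 0.43 ± 0.07 (SE). Its partners did not pass: the log2 changes were -0.11 for Prim2 (adjusted p = 0.075), -0.12 for Pola2 (0.14) and -0.10 for Pola1 (0.26). The interval of Pola1, -0.22 to 0.02, lies apart from that of Prim1, -0.60 to -0.27.

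Clamp and loader genes were lower in 3 of 6 cases. Pcna, the sliding clamp, had 12.19, 12.21, 12.20, 12.38 and 12.17 in the Gata4 samples, against 12.32, 12.38, 12.53, 12.30 and 12.33 in the EV samples. The groups overlapped through Gata4 sample 4, and the change of -0.14 missed the threshold (interval -0.27 to -0.01, adjusted p = 0.11). Without that sample Pcna was called lower (adjusted p = 0.038). Among subunits of the clamp loader, Rfc2, Rfc4 and Rfc5 fell by 0.38, 0.35 and 0.34 on the log2 scale, with overlapping groups for Rfc4, which lost its call under the exact permutation test (adjusted p = 0.087). The large subunit gene Rfc1 and Rfc3 had changes of -0.11 each that did not pass. All 4 genes for handling single strands and Okazaki fragments fell, where 24.3% of genes above the median level were called lower. Rpa2, a subunit of the single-strand binding protein RPA, had 8.17, 8.06, 7.88, 8.10 and 8.03 in the Gata4 samples, against 8.60, 8.48, 8.62, 8.48 and 8.73 in the EV samples, a 1.45-fold fall (adjusted p = 5.6e-05). Lig1, the ligase that seals the fragments, fell 1.42-fold. Fen1, the flap nuclease, changed by -0.31 ± 0.08 (SE) with overlapping groups and lost its call under the same test (adjusted p = 0.064), and Rpa1, the largest RPA subunit, by -0.26 ± 0.05 (SE).

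Genes of deoxynucleotide supply fell in 3 of 4 cases. Rrm2, the S phase subunit of ribonucleotide reductase, had 9.21, 9.13, 9.20, 9.11 and 9.27 in the Gata4 samples, against 9.996, 10.03, 9.89, 9.96 and 9.79 in the EV samples. The groups lay far apart beside their spread, with a fold of 1.68 (interval 1.54 to 1.83, adjusted p = 5.5e-07). Rrm1, the large subunit of the same enzyme, fell 1.25-fold (interval 1.16 to 1.34), so the interval of its partner lies apart from its own. Tk1, thymidine kinase, fell 1.36-fold. Tyms, which encodes thymidylate synthase, rose: it stood at 9.51, 9.48, 9.46, 9.59 and 9.38 in the Gata4 samples, against 9.29, 9.25, 9.26, 9.26 and 9.28 in the EV samples. Every Gata4 sample was above every EV sample, with a log2 change of 0.22 ± 0.05 (SE, adjusted p = 0.0042). The salvage and the synthesis gene for thymidylate thus moved in opposite directions.

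The cyclins and kinases of G1 split by member. Ccne2, a cyclin E gene, had 8.06, 8.14, 8.17, 8.09 and 8.09 in the Gata4 samples, against 8.70, 8.82, 8.75, 8.73 and 8.84 in the EV samples, a 1.58-fold fall (interval 1.47 to 1.69, adjusted p = 2.9e-07). The other cyclin E gene, Ccne1, had a change of -0.20 that did not pass (interval -0.36 to -0.03, adjusted p = 0.077), which lies apart from the interval of Ccne2, -0.76 to -0.56. Of the D cyclins, which answer to growth signals, Ccnd1 fell 1.26-fold. Its values were 12.50, 12.58, 12.66, 12.63 and 12.61 in the Gata4 samples, against 12.98, 13.03, 12.85, 12.93 and 12.85 in the EV samples. Ccnd2 had a change of -0.05 (interval -0.16 to 0.06) and Ccnd3 one of 0.21 (interval 0.04 to 0.37, adjusted p = 0.069), and neither passed. The groups overlapped for both.

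The kinase partners of the D cyclins moved in opposite directions. Cdk4 rose 1.23-fold (interval 1.15 to 1.32, adjusted p = 0.00029), with 12.33, 12.30, 12.28, 12.25 and 12.34 in the Gata4 samples, against 11.96, 11.94, 12.08, 12.03 and 12.01 in the EV samples. Cdk6 fell 1.33-fold (adjusted p = 0.00089), with 9.88, 9.96, 10.02, 9.89 and 9.97 in the Gata4 samples, against 10.46, 10.54, 10.30, 10.37 and 10.12 in the EV samples. Neither overlapped between the groups. Cdk2, the partner of cyclin E, had a change of 0.06 that did not pass (interval -0.05 to 0.17).

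**Figure D5:**
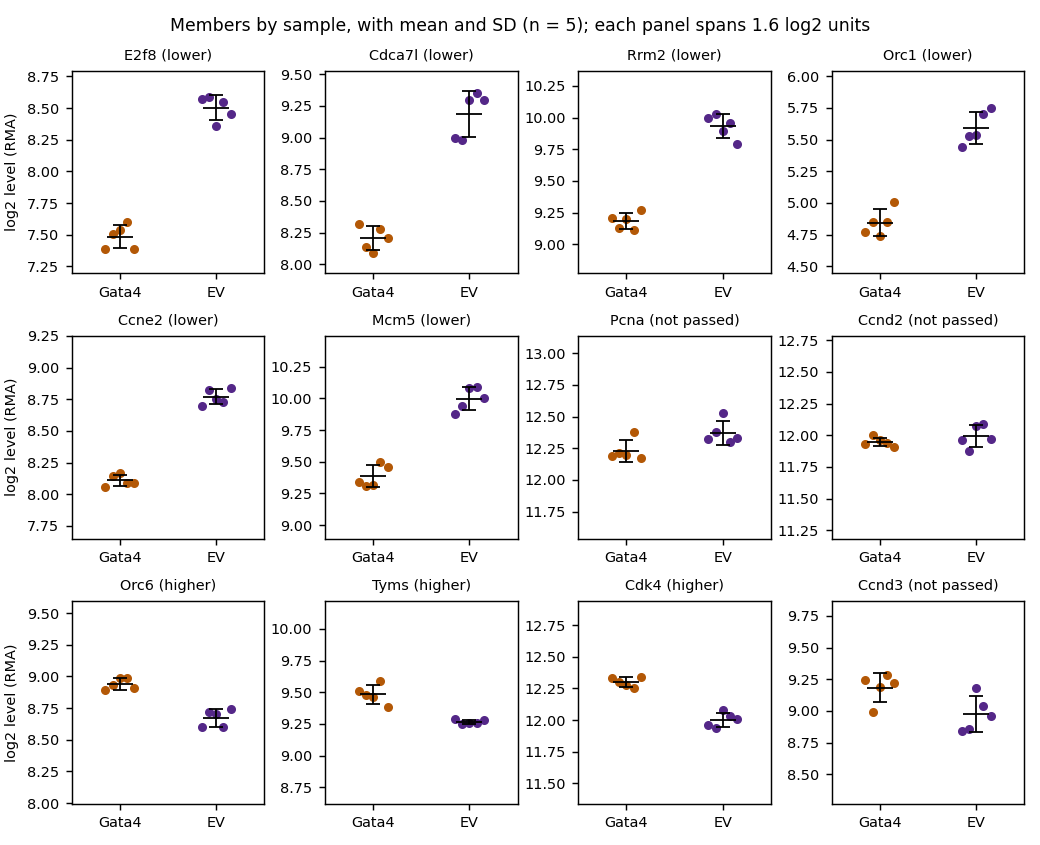
Log2 level (RMA) of 12 members in the 5 Gata4 samples (left in each panel) and the 5 EV samples (right), with the mean and SD of each group as the black bar; the vertical axes do not start at 0 but all span the same range. E2f8, Cdca7l, Rrm2, Orc1, Ccne2 and Mcm5 lie lower and Orc6, Tyms and Cdk4 higher in Gata4 samples without overlap, while Pcna, Ccnd2 and Ccnd3 overlap.

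Of 5 E2F genes, 3 fell and 2 did not pass. E2f8, an atypical E2F that shuts off S phase genes, fell furthest of all members: it stood at 7.39, 7.51, 7.54, 7.60 and 7.39 in the Gata4 samples, against 8.57, 8.59, 8.36, 8.55 and 8.45 in the EV samples. The fall was 2.03-fold (interval 1.84 to 2.22, adjusted p = 7.1e-08). E2f7, its close relative, had 7.46, 7.49, 7.42, 7.35 and 7.23 in the Gata4 samples, against 7.88, 7.97, 7.89, 7.94 and 7.88 in the EV samples, a 1.44-fold fall. Both repressor genes lay apart between the groups. Of the activators, E2f1 fell by 0.43 ± 0.08 (SE), with values of 6.97 to 7.37 in the Gata4 samples, against 7.47 to 7.75 in the EV samples. The activators E2f2 and E2f3 had changes of 0.12 (interval -0.11 to 0.36) and 0.18 (interval -0.02 to 0.37) that did not pass, and E2f2 had low means of 3.98 in Gata4 and 3.86 in EV samples, where values may be background. The pocket protein genes Rb1 and Rbl1, whose products hold E2F in check, fell as well, with log2 changes of -0.31 ± 0.05 and -0.35 ± 0.04 (SE). Rbl1 was tight within the Gata4 samples, at 8.23 to 8.27, against 8.52 to 8.65 in the EV samples.

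All 3 genes named for cell division cycle association fell without overlap, where 19.8% of genes above the median level did so. Cdca7l, a relative of Cdca7, had 8.32, 8.14, 8.09, 8.28 and 8.21 in the Gata4 samples, against 9.00, 8.98, 9.30, 9.35 and 9.30 in the EV samples, a 1.97-fold fall (interval 1.74 to 2.23, adjusted p = 1.6e-06). Its EV samples 1 and 2 were the lowest of that group and still above all Gata4 samples. Cdca7, whose product activates the chromatin remodeller HELLS, and Cdca4, a SERTA domain gene, both fell by 0.59 on the log2 scale. Their values were 6.95 to 7.29 for Cdca7 in the Gata4 samples, against 7.59 to 7.92 in the EV samples, and 9.02 to 9.12 for Cdca4 in the Gata4 samples, against 9.55 to 9.73 in the EV samples.

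Genes of the same pathways that were not among the 56 were counted in 7 further lists. Of all named genes 13.2% were called lower and 12.4% higher, and of those above the median level 24.3% and 21.7%. Of 16 other licensing and firing genes, 8 (50%) were lower and 2 (12.5%) higher. Clspn, a checkpoint mediator at the fork, fell by 0.60, Ticrr, which helps Cdc45 onto origins, by 0.45 and Wdhd1, a fork scaffold, by 0.39. The origin recognition genes Orc5 and Orc3 rose by 0.35 and 0.22, beside the rise of Orc6. Of 16 other polymerase, clamp and fork genes, 7 (43.8%) were lower and 2 (12.5%) higher. Chtf18, of an alternative clamp loader, changed by -0.71, Pole2 of polymerase epsilon by -0.65 and Pold3 of polymerase delta by -0.60, whereas Top1, topoisomerase I, and Pold4, the small delta subunit, rose by 0.47 and 0.37. Polymerase delta genes thus moved in both directions.

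Of 12 other nucleotide supply genes, 5 (41.7%) were lower and 2 (16.7%) higher, with a list median of -0.02. For this list and the next 2, the shares above the median level were again 24.3% lower and 21.7% higher. The CTP synthase gene Ctps fell by 0.77, the dCMP deaminase gene Dctd by 0.63 and the deoxycytidine kinase gene Dck by 0.56. Nme1, a nucleoside diphosphate kinase, and Gart, of purine synthesis, rose by 0.41 and 0.19. Gart lost its call without EV sample 4 (adjusted p = 0.054), Gata4 sample 1 (0.05) or Gata4 sample 5 (0.051), and without EV samples 1 and 2 together (0.091). Of 10 replication-coupled chromatin genes, 8 (80%) were lower and 0 higher by limma, also at an unadjusted p under 0.05. The log2 changes were -0.91 for the histone chaperone gene Asf1b, -0.58 for Uhrf1, which guides maintenance methylation, and -0.43 for the chromatin assembly gene Chaf1a, whose groups overlapped and which lost its call under the exact permutation test (adjusted p = 0.064). Of 17 other G1/S regulators, 10 (58.8%) were lower and 1 (5.88%), Tfdp2, a partner of E2F factors, was higher by 0.19 (adjusted p = 0.038). Tfdp2 lost its call under the exact permutation test (adjusted p = 0.064), with the replicate block (0.082), without EV samples 1 and 2 together (0.21) and without any one of EV samples 1, 2 and 4 or Gata4 samples 1 to 4 (0.053 to 0.091). Mybl2, a transcription factor of S phase and later, fell by 0.89, the repressor E2F gene E2f4 by 0.63 and Cks1b, which binds cyclin-dependent kinases, by 0.49.

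Of 7 CDK inhibitor genes, 3 (42.9%) were higher and 1 (14.3%) lower. The shares were 12.4% higher and 13.2% lower over all named genes, and 21.7% and 24.3% above the median level. Cdkn1c, which encodes p57, rose by 0.99 ± 0.15 (SE, adjusted p = 0.00031). Its means were low, 5.07 ± 0.36 in Gata4 and 4.08 ± 0.19 in EV samples (SD, n = 5 each), and the EV mean lay below the median of all values, 4.156. The neighbouring INK4 genes Cdkn2a and Cdkn2b, whose products include inhibitors of CDK4 and CDK6, rose by 0.51 ± 0.05 and 0.40 ± 0.08 (SE). Cdkn2c, a further INK4 gene, fell by 0.56 ± 0.09 (SE). Cdkn1a, which encodes p21, averaged 12.60 ± 0.08 in Gata4 and 12.59 ± 0.03 in EV samples (SD, n = 5 each) and did not pass (adjusted p = 0.90). Cdkn1b and Cdkn2d, each with a log2 change of 0.06, did not pass either.

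Mitosis genes, set beside the members as the phase that follows, were lower in 15 (78.9%) and higher in 0 of 19 cases by limma (16 lower and 0 higher at an unadjusted p under 0.05). By limma's adjusted p, 24.3% of genes above the median level were lower and 21.7% higher. The median change of the mitosis genes, -0.34, equals that of the members to 2 decimals, and no test of a difference between the lists was made. Foxm1, a transcription factor of late cell cycle genes, fell by 1.24, Cenpf, a kinetochore gene, by 0.71 and the kinase gene Aurkb by 0.67.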

How the data were processed

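The authors deposited log2 expression values of 10 arrays made with RMA, per the submitters' processing notes. RMA corrects background, gives all arrays the same distribution and combines the probes of a feature. Its version is not given in the sources used here. Each change is therefore relative to the other genes of the array, and a shift of all genes would be hidden. The number of arrays, 5 per group, limits the precision. The platform annotation gave 1 symbol to 23111 of 23748 features, all different, and none to 637. Group means were compared with limma 3.58.1 (R 4.3.3; lmFit, eBayes) over all named genes and 10 samples, without covariates, and Benjamini-Hochberg adjusted p-values under 0.05 were called. SE is the moderated standard error. Each gene was read by its own feature, and whether features respond alike to the same change in RNA was not tested. The fit was also run on simulated data with independent samples. That simulation held no shared transduction or batch, so it cannot show how such sharing would affect the calls.

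The members, lists, roles, alternatives and named genes were chosen with earlier results of these data known. Named genes were all members, all CDK inhibitors, and up to 3 called genes per direction in each further list. Of 100 genes in those lists 97 were measured. Correlations between arrays were 0.9964 to 0.9977 within and 0.9841 to 0.9863 between groups, and 0 columns were identical. Promoter windows are from RefSeq, matched by symbol. Of the 13 members with E2F words before the start, 9 sequences were printed. Alternatives were another variance prior, low-value filters, scaling, array weights, an exact permutation test, the replicate block and leaving out samples.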

Additional observations from a re-analysis of the deposited data

Results flagged for a closer look

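In 178 groups of 5 samples, 7 held a sample far from the other 4, where chance gives about 1 in 20. Gata4 sample 4 was high for Mcm7, at 9.60 against 9.43 to 9.45 in the others, and for Pcna, at 12.38 against 12.17 to 12.21. Gata4 sample 2 was low for Ccnd3, at 8.99 against 9.19 to 9.28, and for Mybl2, at 7.88 against 8.23 to 8.31. Gata4 sample 3 was low for Tk1, at 8.46 against 8.57 to 8.59. EV sample 4 was low for Gins1, at 6.66 against 6.74 to 6.77, and EV sample 5 for Chaf1a, at 7.66 against 7.91 to 8.01.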

How the results depend on the processing

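Over 19 alternatives, one of them (leaving out EV samples 1 and 2 together) added after earlier results had set that pair apart, the number of members called lower lay between 37 and 41 and the number called higher was 3 or 4. Of 1063 member results 1042 kept direction and side of the threshold, 18 gained a call, 3 lost one and 0 turned. Fen1 and Rfc4 lost the call under the exact permutation test, and Gins1 without EV samples 1 and 2. The smallest p of the permutation test, over 252 assignments, was 0.0079, with an adjusted value of 0.038. That test called only genes whose groups did not overlap, 2433 lower and 2432 higher, so its calls repeat that count. Of the other named genes, Gata4, Chaf1a and Tfdp2 lost the call under the exact permutation test, Tfdp2 also with the replicate block, and Tfdp2 and Gart when some samples were left out. Among members, Ccnd3, Ccne1, Mcm4, Mcm8, Pcna and Prim2 gained one under some alternative. Outside the members, Cdkn1a ranged from -0.0048 (without Gata4 replicate 1) to 0.04 (without Gata4 replicate 2) when a sample was left out, turning also without Gata4 replicate 3 (-0.0044), and Cdkn2d turned to -0.02 without EV samples 1 and 2, and neither gene passed in any fit. Same-numbered samples of the groups deviated together little (correlations of -0.02 to 0.09), although 6 of 10 samples correlated best with their own number. These values do not settle whether the numbers pair the samples. With the replicate block 39 members were lower and 3 higher. The table carries no detection call, so low values such as those of E2f2, Cdkn1c, Orc1 and the Gata4 feature may be background.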
